A study of Mus musculus with 12 samples.

Results

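Integrins are the receptors by which cells hold on to matrix and to one another, and the focal adhesion adaptors are the cytoplasmic proteins that tie them to actin. The genes described here are those whose symbol marks an integrin alpha subunit or integrin beta subunits 1 to 8, together with the talins, kindlins, Ilk, the parvins, Lims1, vinculin (Vcl), paxillin (Pxn), zyxin (Zyx) and focal adhesion kinase (Ptk2). They come to 40 genes by name, of which 37 were measured, among 19505 genes with a name on the array. Itga1, Itga10 and Ptk2 were not analysed here, because no probe set carried their names. The 37 genes comprise 16 integrin subunits that bind matrix, 8 integrin subunits of leukocytes and 13 adaptors, and each had a single probe set, so no choice among probe sets was needed.

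RNA came from the annulus fibrosus (AF), the fibrous ring of the intervertebral disc, and from the nucleus pulposus (NP), its gel-like core. Lumbar discs (L1-S1) of mice aged 12 months were used, all on a C57BL/6 background. Wild-type (WT) mice were compared with mice labelled TonEBP +/-, which keep 1 functional copy of Nfat5, the gene of the osmosensitive transcription factor TonEBP. The 4 groups (AF WT, AF TonEBP +/-, NP WT and NP TonEBP +/-) held 3 Clariom S arrays each, and each array carried pooled disc tissue of a single animal. No other allele or agent is named in the labels, the haploinsufficiency is not said to be restricted to a cell type, and the labels do not say whether the AF and NP of 1 animal were both used.

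Each integrin is a pair of 1 alpha and 1 beta subunit, and the pairing sets what it binds: collagens, laminins, the RGD motif of fibronectin and vitronectin, or counter-receptors on other cells. Talins and kindlins bind the tails of beta subunits and switch integrins on. The complex of integrin-linked kinase (Ilk), PINCH (Lims1) and a parvin then connects them to actin, with vinculin, zyxin and paxillin joining at the adhesion. In the disc, NP cells derive from the notochord and sit in a matrix rich in laminin and proteoglycan, whereas AF cells sit among collagen fibres. The integrins with a beta-2 or beta-7 subunit, and kindlin-3 (Fermt3), belong mainly to blood cells.

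Promoter sequences are shown for 3 genes on which the results turn: Itgam, the leukocyte integrin with the largest genotype difference in AF; Fermt3, the adaptor whose genotype difference was most unlike in AF and NP; and Itga5, which was below background in AF and above it on all NP arrays. They are RefSeq sequences of the mouse build GRCm38.p6, from 250 bases before to 50 bases after the annotated start, written 5′ to 3′ along the gene. Capitals mark GAGGAA, the core bound by the myeloid factor PU.1, or TGGAAA, the core of the element bound by TonEBP, each searched on both strands.
Itgam promoter, chr7:128062390-128062689, + strand: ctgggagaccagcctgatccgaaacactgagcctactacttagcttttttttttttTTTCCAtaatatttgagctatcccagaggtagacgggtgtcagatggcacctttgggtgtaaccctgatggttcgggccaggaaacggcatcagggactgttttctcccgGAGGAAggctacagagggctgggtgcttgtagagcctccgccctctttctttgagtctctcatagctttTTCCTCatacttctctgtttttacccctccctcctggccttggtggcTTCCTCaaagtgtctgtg
Fermt3 promoter, chr19:7019420-7019719, - strand: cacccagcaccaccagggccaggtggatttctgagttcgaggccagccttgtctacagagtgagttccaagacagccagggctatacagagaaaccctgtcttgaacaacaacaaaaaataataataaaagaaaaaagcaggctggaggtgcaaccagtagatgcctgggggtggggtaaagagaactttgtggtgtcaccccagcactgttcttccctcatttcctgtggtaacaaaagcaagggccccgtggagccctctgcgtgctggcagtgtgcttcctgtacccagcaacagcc
Itga5 promoter, chr15:103366742-103367041, - strand: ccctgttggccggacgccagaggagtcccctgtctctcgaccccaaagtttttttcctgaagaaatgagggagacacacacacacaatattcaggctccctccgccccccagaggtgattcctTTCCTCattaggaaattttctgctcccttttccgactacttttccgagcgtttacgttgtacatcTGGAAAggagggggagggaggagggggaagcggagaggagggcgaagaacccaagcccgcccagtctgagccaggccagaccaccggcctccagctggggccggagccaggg

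The Itgam promoter held 4 such matches, the Itga5 promoter 2 and the Fermt3 promoter 0. A promoter was listed for 26 of the 37 genes, with 32 promoters in all. Of these 32 promoters, 12 held GAGGAA and 6 held TGGAAA. Among 32851 mouse promoters of this length, 28.3% held GAGGAA and 21.4% held TGGAAA. These matches are descriptions of letters in the window and not sites of binding. The genes Itgam, Itgax and Itgad, follow one another among the protein-coding genes of chromosome 7, which also carries Itgal, and Parvb and Parvg are neighbours on chromosome 15. Itgam was above background on all 12 arrays, while its neighbours Itgax and Itgad were above it on none.

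Signals are log2 values made with the RMA method, 1 per probe set and array, and a difference of 1 is a doubling. Background was set per array at the 95th percentile of its 23 background probe sets, a level of 7.73 to 7.98 on AF arrays and 7.11 to 7.33 on NP arrays. By this measure 30 of the 37 genes were above background on at least 1 array, against 62.5% of all 22206 probe sets tested. The 7 genes above it on none were Itga9, Itgad, Itgae, Itgax, Itgb4, Itgb8 and Parvb. Where 1 group had no array above background, its fold change is given as a lower bound against the background level ("at least"), and where neither group had one, no fold change is given.

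The median SD of the 37 genes was 0.214 on AF WT arrays, 0.358 on AF TonEBP +/- arrays, 0.262 on NP WT arrays and 0.217 on NP TonEBP +/- arrays (n = 3 each). AF TonEBP +/- array 3 stood apart: its interquartile range of all signals was 3.11, and it was the highest of the 6 AF arrays for 20 of the 37 genes (54.1%) and for 28.4% of all probe sets. Array medians were 7.43 to 7.64 on AF arrays and 6.82 to 6.87 on NP arrays. Nfat5 itself did not mark the genotype: it differed by 0.09 in AF (95% interval -0.77 to 0.94) and by 0.50 in NP (-0.35 to 1.36), TonEBP +/- minus WT, and where its probes lie relative to the altered part of the gene is not known here. The labelled tissues carried their markers in part: 4 of 4 measured NP markers (Cd24a, Krt8, Krt18, Krt19) were higher in NP in both genotypes, and Col1a1, Col1a2, Lum and Tnmd of 7 AF markers were higher in AF, whereas Fmod and Scx in both genotypes, and Mkx in TonEBP +/-, were called higher in NP. The tendon and annulus genes Scx, Mkx and Tnmd were above background on no array of any group. Blood-cell genes were also present: the mean log2 signal of 6 pan-leukocyte markers was 12.8 to 14.0 on AF WT, 14.4 to 15.4 on AF TonEBP +/-, 9.04 to 10.5 on NP WT and 7.52 to 8.90 on NP TonEBP +/- arrays. In such bulk tissue, fewer cells of a type and less RNA per cell cannot be told apart.

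The first comparison asks which integrins and adaptors each disc compartment carries. In WT discs the RGD-binding subunits Itgav and Itga5, the common partner Itgb1, and a set of adaptors (Tln2, Parva, Fermt2, Ilk) were higher in NP than in AF, by 6.40- to 27.6-fold with each array's median subtracted, where both tissues were measured. Under quantile normalization the same genes differed less, from 1.15 for Ilk to 3.91 for Tln2 on the log2 scale. The leukocyte subunits Itgb2, Itgam, Itga4 and Itgal, and with them Itgb3, Itga2 and Fermt3, were lower in NP. In the fit across all probe sets (limma, adjusted p under 0.05, each array's median subtracted), 13 of the 37 genes were higher in NP and 16 lower, 29 in all. Of all probe sets tested, 33.7% were higher and 31.3% lower (65% in either direction), so the share of genes higher in NP lay near the background, and 43.2% were lower. In TonEBP +/- discs 11 genes were higher in NP and 18 lower, against 30.9% and 25.3% of all probe sets (56.2% in either direction). Some of these calls rest on signals near or below background. In WT they are Itga11, Itga9, Itgax, Itgb8 and Parvb, and without them 12 genes were higher and 12 lower. In TonEBP +/- they are Itga11, Fermt1, Itga9, Itgad, Itgb8 and Parvb, which leaves 10 higher and 13 lower.

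The balance of higher and lower genes depended on how the tissues were scaled: on the values as deposited, whose median probe set shifted by -0.84 in WT and -0.75 in TonEBP +/- from AF to NP, the split was 11 higher and 24 lower in WT, and in TonEBP +/- it was 10 higher and 24 lower. On those values 22.2% of all probe sets were higher and 56.1% lower in WT, and 20% higher and 54.4% lower in TonEBP +/-, so the members' split there lay near or somewhat above the background in both directions. Tissue differences and bounds below are on median-subtracted signals unless another scaling is named. On all 3 scalings (as deposited, medians subtracted, quantile normalization) 9 genes were higher in WT NP (19.2% of all probe sets) and 14 lower (22.1%). The 9 were Fermt2, Ilk, Itga5, Itga7, Itgav, Itgb1, Itgb5, Parva and Tln2, and they also kept their call in every other setting run and with any 1 array left out. The 14 were Fermt3, Itga2, Itga2b, Itga4, Itga8, Itga9, Itgal, Itgam, Itgb2, Itgb3, Itgb6, Lims1, Parvb and Parvg, of which Itga9 and Parvb were below background in both tissues. In TonEBP +/- discs 10 genes were higher on all 3 scalings (17.9% of all probe sets) and 15 lower (18.2%), with Itga6 added to the former.

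**Figure D1:**
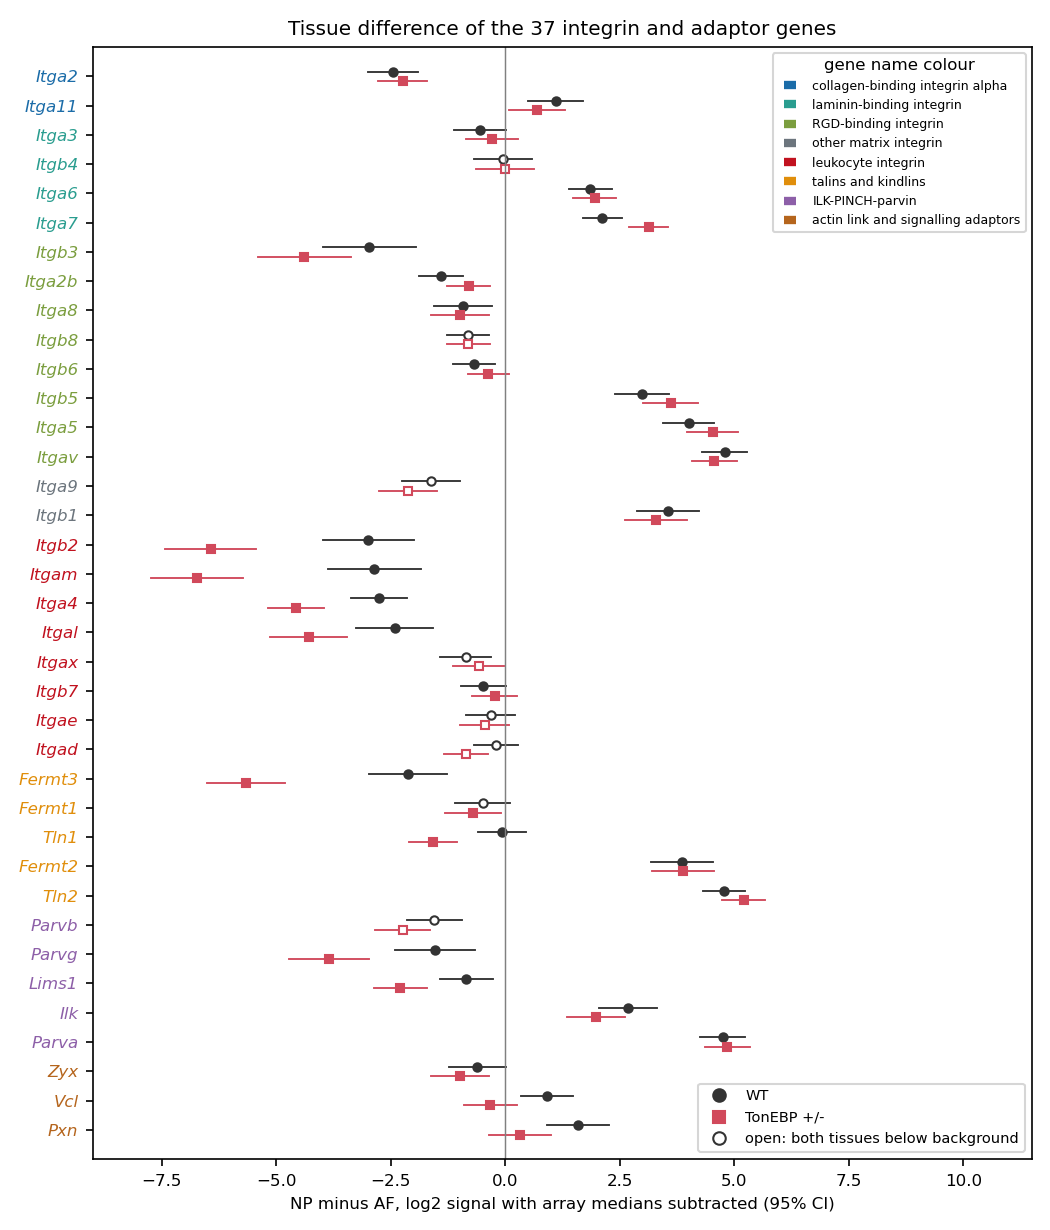
Difference between NP and AF (x axis, log2 signal with array medians subtracted, 95% confidence interval) for each of the 37 genes (y axis) in WT (circles) and TonEBP +/- mice (squares); open symbols mark genes below background in both tissues and name colours mark the class. Tln2, Parva, Itgav and Itga5 lie above 4 in both genotypes, and Itgam, Itgb2 and Fermt3 lie further to the left in TonEBP +/- than in WT.

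Among collagen-binding subunits, Itga2, the alpha subunit of a collagen receptor of platelets and epithelium, read 8.54, 8.73 and 7.90 on AF WT arrays and 8.76, 8.27 and 8.32 on AF TonEBP +/- arrays. On NP arrays it read 5.06, 5.41 and 5.13 in WT and 5.49, 5.32 and 5.75 in TonEBP +/-. Every AF array was above background and no NP array was. Itga2 was therefore lower in NP by at least 1.35-fold in WT and at least 1.50-fold in TonEBP +/- (fitted log2 differences -2.45, SE 0.253, limma adjusted p 6.93e-07, and -2.24, SE 0.253, adjusted p 1.55e-06). Itga11, a receptor for fibrillar collagen on fibroblasts, read 6.46, 6.31 and 6.46 in AF WT, 6.64, 6.86 and 7.34 in AF TonEBP +/-, 6.22, 6.88 and 7.20 in NP WT and 6.89, 7.29 and 6.66 in NP TonEBP +/-. Only 2 of these 12 readings were above background, so its call as higher in NP rests on signals near the background level. In WT it was lost on the values as deposited, and in TonEBP +/- it was kept in 4 of 12 omissions of 1 array and 3 of 6 other settings, with an adjusted p up to 0.999.

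Among laminin-binding subunits, Itga6, the alpha subunit of a widespread laminin receptor, was above background on all 12 arrays. It read 9.86, 9.95 and 9.84 in AF WT and 9.74, 10.13 and 9.91 in AF TonEBP +/-. On NP arrays the values were 10.77, 11.37 and 10.85 in WT and 11.36, 11.18 and 11.05 in TonEBP +/-. All NP arrays were above all AF arrays, with a difference of 1.85 in WT (SE 0.221, adjusted p 3.33e-06) and 1.96 in TonEBP +/- (SE 0.221, adjusted p 1.57e-06); under quantile normalization the WT call was lost (adjusted p 0.0591). Itga7, a laminin receptor best known from muscle, was above background on all NP arrays and on no AF array, with NP means of 8.85 ± 0.04 in WT and 9.27 ± 0.14 in TonEBP +/- (SD, n = 3). It was higher in NP by at least 3.39-fold in WT and at least 4.16-fold in TonEBP +/-. Itga3, with differences of -0.54 in WT and -0.28 in TonEBP +/-, passed neither with medians subtracted nor under quantile normalization (-0.64 and -0.37), but on the values as deposited it was lower in NP (-1.28, adjusted p 0.000525, and -0.97, adjusted p 0.00489). Itgb4, the hemidesmosome subunit that pairs with alpha-6, read 7.27, 6.94 and 6.48 in AF WT, 6.57, 7.53 and 6.10 in AF TonEBP +/-, 5.84, 6.26 and 6.22 in NP WT and 6.01, 6.21 and 5.90 in NP TonEBP +/-, all below background. The values for Itga7 and Itga3 were selected for description after they were seen.

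The RGD-binding subunits divided between the tissues. Itgav, the alpha subunit shared by the vitronectin receptors, read 11.11, 10.72 and 11.10 in AF WT and 10.97, 11.18 and 11.52 in AF TonEBP +/-. The NP arrays gave 15.10, 14.90 and 15.08 in WT and 15.07, 15.25 and 14.98 in TonEBP +/-. Values of AF and NP lay far apart and the genotypes overlapped in each. The difference was 4.79 in WT (SE 0.230, 27.6-fold, adjusted p 2.24e-10) and 4.56 in TonEBP +/- (SE 0.230, 23.7-fold, adjusted p 2.20e-10). Itga5, the alpha subunit of the classical fibronectin receptor, read 6.64, 6.33 and 6.38 in AF WT and 6.50, 6.36 and 6.53 in AF TonEBP +/-, all below background. In NP it read 9.75, 9.73 and 9.67 in WT and 10.95, 9.93 and 10.03 in TonEBP +/-. It was higher in NP by at least 6.16-fold in WT and at least 8.49-fold in TonEBP +/- (fitted differences 4.01 and 4.53, SE 0.261 each).

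Itgb3, which pairs with alpha-v in osteoclasts and with alpha-IIb in platelets, ran the other way. It read 11.67, 9.69 and 10.04 in AF WT and 11.41, 10.60 and 12.34 in AF TonEBP +/-. On NP arrays the values were 6.71, 6.66 and 6.93 in WT and 6.90, 6.19 and 6.03 in TonEBP +/-. Every AF array was above background and no NP array was, so Itgb3 was lower in NP by at least 5.71-fold in WT and at least 12.0-fold in TonEBP +/-. Its spread was the widest of the 37 genes in AF (SD 1.06 in WT and 0.871 in TonEBP +/-). Markers of the cells known to carry Itgb3 were in part lower in NP too, and their part in the result was not tested. Of 6 osteoclast markers, Acp5, Atp6v0d2, Dcstamp and Ocstamp were called lower in WT, and Ctsk only in TonEBP +/-. Of 5 megakaryocyte and platelet markers, 4 were lower in WT and 5 in TonEBP +/-. Of all probe sets, 31.3% and 25.3% were lower. The means that follow are on the values as deposited. The mean log2 signal of 6 osteoclast markers was 7.29 to 9.00 in AF WT and 9.85 to 11.0 in AF TonEBP +/-. Over all NP arrays it was 5.86 to 6.22. Acp5 and Atp6v0d2 were above background on no NP array, and Calcr, Dcstamp and Ocstamp on no array of either tissue. The mean of 5 megakaryocyte and platelet markers was 8.52 to 9.42 in AF WT and 8.82 to 10.0 in AF TonEBP +/-. In NP that mean was 6.48 to 6.71 in WT and 5.91 to 6.20 in TonEBP +/-.

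Itgb5, another partner of alpha-v, was higher in NP by 2.98 in WT (SE 0.279, 7.91-fold, adjusted p 2.28e-07) and by 3.61 in TonEBP +/- (SE 0.279, 12.2-fold, adjusted p 2.30e-08); it was singled out after its values were seen. Itga2b, the platelet alpha subunit, was lower in NP, with a log2 difference of -1.40 in WT (SE 0.223, adjusted p 6.18e-05) and -0.80 in TonEBP +/- (SE 0.223, adjusted p 0.00644) and was above background on all 12 arrays. Itga8 and Itgb6 had low signals in AF and were near or below background in NP. Itga8 was lower in NP by at least 1.16-fold in WT and at least 1.05-fold in TonEBP +/-, and Itgb6 by at least 1.15-fold in WT. The call of Itga8 was lost in WT without NP WT array 1 (adjusted p 0.0759) and in TonEBP +/- without AF TonEBP +/- array 1 (adjusted p 0.0635). In TonEBP +/- Itgb6 was called lower on the values as deposited (-1.06, adjusted p 0.000619) and not with medians subtracted (-0.37, adjusted p 0.156). Itgb8 read 6.30, 6.27 and 6.35 in AF WT, 6.28, 6.12 and 6.03 in AF TonEBP +/-, 4.52, 5.15 and 4.58 in NP WT and 4.63, 4.69 and 4.63 in NP TonEBP +/-, all below background.

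Itgb1, the beta subunit of most matrix receptors, read 12.49, 12.49 and 12.10 in AF WT and 12.25, 12.46 and 13.68 in AF TonEBP +/-. The NP arrays gave 14.94, 15.22 and 15.35 in WT and 15.41, 15.38 and 15.43 in TonEBP +/-. Only AF TonEBP +/- array 3 stood above the other AF arrays, and every NP array was higher still. The tissue difference was 3.55 in WT (SE 0.321, 11.7-fold, adjusted p 1.65e-07) and 3.30 in TonEBP +/- (SE 0.321, 9.83-fold, adjusted p 3.09e-07). Itga9, which pairs with it to bind tenascin, read 7.47, 6.95 and 6.40 in AF WT, 7.45, 7.19 and 7.81 in AF TonEBP +/-, 4.07, 4.88 and 4.81 in NP WT and 4.57, 4.80 and 4.62 in NP TonEBP +/-, below background throughout.

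With medians subtracted, none of the 8 leukocyte subunits was higher in NP, and 5 were lower in each genotype. Of all probe sets, 31.3% were lower in WT and 25.3% in TonEBP +/-. Itgam, Itgb2, Itga4 and Itgal were lower in both genotypes. The remaining call was Itgax in WT and Itgad in TonEBP +/-, each below background on every array. Itgam (CD11b), which with Itgb2 (CD18) forms the complement receptor of myeloid cells, read 14.76, 13.69 and 14.24 in AF WT and 15.92, 15.96 and 16.40 in AF TonEBP +/-. In NP it read 11.21, 11.04 and 9.64 in WT and 8.99, 7.52 and 9.52 in TonEBP +/-. It was thus highest in AF TonEBP +/-, then AF WT, NP WT and NP TonEBP +/-, with no overlap between neighbours in that order. Its tissue difference was -2.86 in WT (SE 0.477, adjusted p 9.24e-05) and -6.73 in TonEBP +/- (SE 0.477, 106-fold lower in NP, adjusted p 8.86e-09).

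Itgb2 read 12.03, 10.38 and 10.94 in AF WT and 12.88, 12.34 and 13.65 in AF TonEBP +/-. On NP arrays the values were 8.10, 7.33 and 6.74 in WT, with 2 of 3 arrays above background, and 6.21, 5.12 and 6.16 in TonEBP +/-, with none. It followed the order of Itgam, again with no overlap between neighbouring groups. The difference was -2.99 in WT (SE 0.466, adjusted p 4.94e-05), and in TonEBP +/- Itgb2 was lower in NP by at least 33.9-fold. Itga4, the alpha subunit of the VCAM-1 receptor, read 11.78, 11.20 and 12.18 in AF WT and 12.73, 12.10 and 12.66 in AF TonEBP +/-. The NP arrays gave 8.36, 8.36 and 7.95 in WT and 7.03, 7.20 and 7.48 in TonEBP +/-. Genotypes overlapped in AF and not in NP, and the tissue difference was -2.76 in WT (SE 0.287, adjusted p 7.69e-07) and -4.57 in TonEBP +/- (SE 0.287, adjusted p 2.36e-09).

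Itgal (CD11a), which pairs with Itgb2 on lymphocytes and other leukocytes, was lower in NP by at least 3.97-fold in WT and at least 8.90-fold in TonEBP +/-. Itgb7 was above background on all 12 arrays, and whether it was called depended on the scaling. With medians subtracted it did not pass, with differences of -0.48 in WT (adjusted p 0.0801) and -0.23 in TonEBP +/- (0.415), whereas it was lower in NP on the values as deposited (-1.22 and -0.92) and under quantile normalization (-1.25 and -0.85; adjusted p up to 0.00294). Both genes were selected after their values were seen. Itgax, Itgad and Itgae stayed below background on every array. Itgax read 6.48, 6.07 and 6.40 in AF WT, 5.81, 5.56 and 6.48 in AF TonEBP +/-, 4.65, 4.67 and 4.83 in NP WT and 4.84, 4.62 and 4.59 in NP TonEBP +/-. Most leukocyte markers moved in the same direction as the subunits, and their part in the result was not tested. All 6 pan-leukocyte and all 9 neutrophil markers were lower in NP in both genotypes. Of the pan-leukocyte markers, 5 of 6 were above background on at least 1 array of every group. Of 6 measured macrophage markers, Mrc1, Adgre1, C1qb and C1qa were lower in NP in both genotypes, whereas Csf1r was called higher in both.

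The adaptors held several closely related genes that differed in opposite directions. Tln1, the talin of all tissues, read 15.79, 15.84 and 15.65 in AF WT and 16.53, 16.43 and 17.09 in AF TonEBP +/-. In NP it read 15.06, 14.99 and 14.79 in WT and 14.11, 14.47 and 14.67 in TonEBP +/-. With medians subtracted, Tln1 differed by -0.07 between the tissues in WT (95% interval -0.59 to 0.45, adjusted p 0.810) and by -1.58 in TonEBP +/- (SE 0.247, adjusted p 4.92e-05). On the other scalings Tln1 was lower in NP in WT too, with -0.81 on the values as deposited (adjusted p 0.00527) and -1.75 under quantile normalization (1.38e-05). Tln2, the talin of heart and brain, read 8.26, 8.16 and 8.08 in AF WT and 7.85, 7.63 and 7.96 in AF TonEBP +/-, close to background. On NP arrays the values were 12.23, 12.34 and 12.06 in WT and 12.11, 12.55 and 12.32 in TonEBP +/-, a difference of 4.78 in WT (SE 0.218, 27.5-fold, adjusted p 1.36e-10) and 5.20 in TonEBP +/- (SE 0.218, 36.8-fold, adjusted p 3.71e-11).

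Kindlin-2 (Fermt2), the kindlin of most solid tissues, read 8.02, 7.85 and 8.10 in AF WT and 7.92, 7.67 and 8.92 in AF TonEBP +/-, around the background level. The NP arrays gave 11.42, 10.99 and 10.93 in WT and 11.70, 11.02 and 11.37 in TonEBP +/-, a difference of 3.86 in WT (SE 0.318, adjusted p 5.87e-08) and 3.88 in TonEBP +/- (SE 0.318, adjusted p 4.55e-08). Kindlin-3 (Fermt3), the kindlin of blood cells, ran opposite. It read 10.14, 9.76 and 10.28 in AF WT and 11.89, 10.52 and 11.98 in AF TonEBP +/-. In NP it read 7.01, 7.94 and 6.66 in WT, with 1 of 3 arrays above background, and 4.89, 4.90 and 5.55 in TonEBP +/-, with none. It was lower in NP, with a log2 difference of -2.12 in WT (SE 0.400, adjusted p 0.000277) and by at least 12.1-fold in TonEBP +/-. Kindlin-1 (Fermt1), the epithelial form, was above background on 1 of 12 arrays and read 7.25, 7.61 and 7.29 in AF WT, 7.28, 8.25 and 7.33 in AF TonEBP +/-, 5.63, 6.66 and 6.14 in NP WT and 6.32, 6.36 and 5.98 in NP TonEBP +/-.

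The parvins divided in the same way. Alpha-parvin (Parva) read 8.59, 8.92 and 8.45 in AF WT and 8.49, 8.55 and 8.98 in AF TonEBP +/-. On NP arrays the values were 12.49, 12.80 and 12.69 in WT and 12.70, 12.95 and 12.85 in TonEBP +/-. Genotypes overlapped in both tissues, and the tissue difference was 4.75 in WT (SE 0.229, 26.9-fold, adjusted p 2.35e-10) and 4.85 in TonEBP +/- (SE 0.229, 28.9-fold, adjusted p 1.11e-10). Gamma-parvin (Parvg), known from leukocytes, was lower in NP, with a log2 difference of -1.53 in WT (SE 0.412, adjusted p 0.00434) and by at least 8.59-fold in TonEBP +/-; it was selected after its values were seen. Beta-parvin (Parvb) read 7.13, 7.24 and 7.34 in AF WT, 7.66, 7.16 and 7.86 in AF TonEBP +/-, 4.67, 5.55 and 4.63 in NP WT and 4.81, 4.38 and 4.71 in NP TonEBP +/-, all below background.

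**Figure D2:**
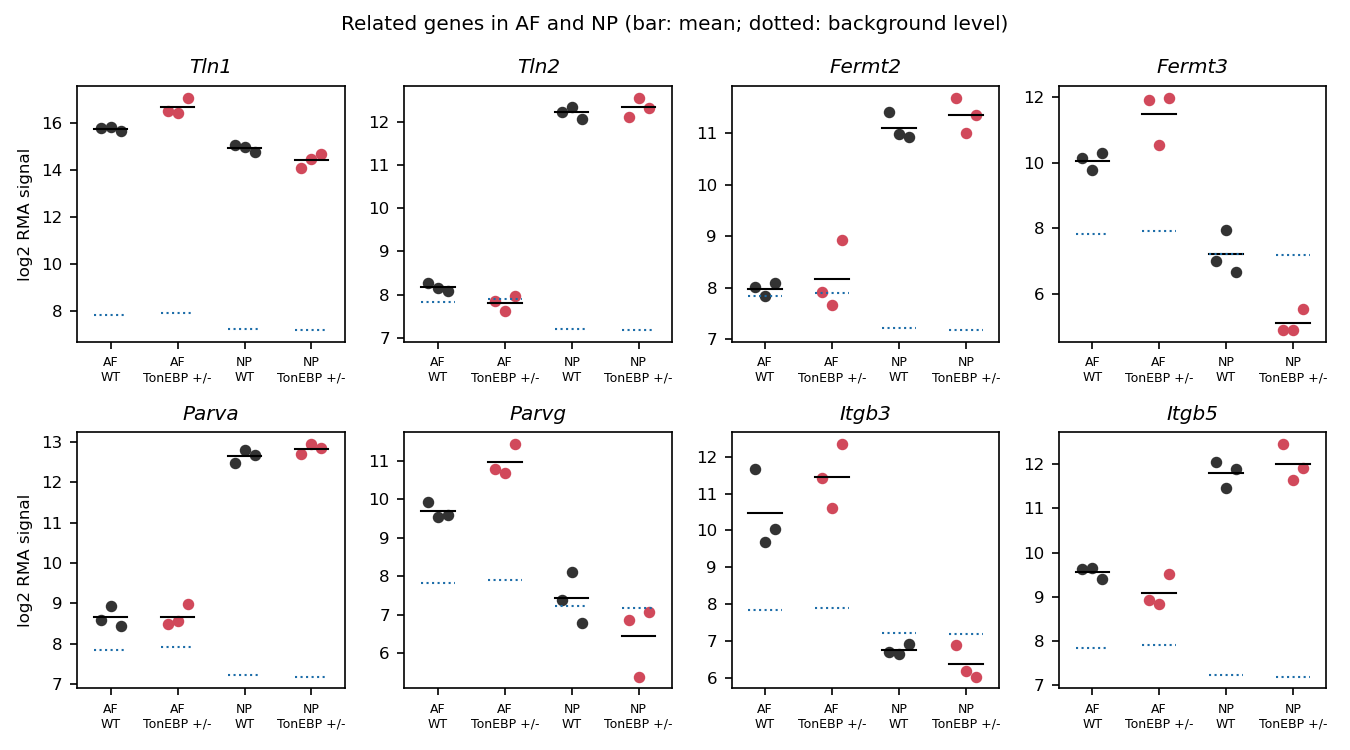
Log2 RMA signal (y axis) of 4 pairs of related genes on each of the 12 arrays (points), by tissue and genotype (x axis), with the group mean as a bar and the mean background level as a dotted line; each panel has its own scale. Tln2, Fermt2, Parva and Itgb5 are higher on every NP array than on any AF array, and Fermt3, Parvg and Itgb3 are lower on every NP array.

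The partners of the parvins also parted. Ilk was higher in NP by 2.68 in WT (SE 0.297, adjusted p 1.51e-06) and 1.99 in TonEBP +/- (SE 0.297, adjusted p 3.12e-05). Lims1, which codes for PINCH1, read 13.62, 13.21 and 13.16 in AF WT and 14.47, 14.06 and 14.77 in AF TonEBP +/-. The NP arrays gave 11.68, 11.98 and 11.56 in WT and 11.72, 11.01 and 11.65 in TonEBP +/-. All AF arrays were above all NP arrays, with a difference of -0.85 in WT (SE 0.274, adjusted p 0.0131) and -2.29 in TonEBP +/- (SE 0.274, adjusted p 3.05e-06). The WT call was lost without AF WT array 1 or NP WT array 3 (adjusted p up to 0.0592).

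Vcl, the actin-binding adaptor recruited by talin, read 11.11, 10.99 and 10.70 in AF WT and 11.88, 11.59 and 12.62 in AF TonEBP +/-. In NP it read 10.96, 11.16 and 11.20 in WT and 10.98, 11.02 and 11.05 in TonEBP +/-. AF and NP WT arrays overlapped on these deposited values. With medians subtracted Vcl was higher in WT NP by 0.91 (SE 0.269, adjusted p 0.00781), but under quantile normalization the difference turned to -0.51 (adjusted p 0.0593), so no tissue direction is read for it in WT. In TonEBP +/- it differed by -0.32 with medians subtracted, by -1.01 on the values as deposited (adjusted p 0.00214) and by -1.54 under quantile normalization (3.36e-05). Zyx, which joins mature adhesions, read 10.74, 10.31 and 9.83 in AF WT, 10.71, 10.06 and 10.66 in AF TonEBP +/-, 9.18, 9.14 and 8.52 in NP WT and 9.08, 8.49 and 8.86 in NP TonEBP +/-. It was lower in NP in TonEBP +/-, with a log2 difference of -0.98 (SE 0.298, adjusted p 0.0110) that missed the threshold without NP TonEBP +/- array 2 (0.0534). In WT the difference was -0.61 (adjusted p 0.0847), and it passed on the values as deposited (-1.35, adjusted p 0.000541) and under quantile normalization (-1.67, 0.000137). Pxn, a scaffold of focal adhesions, differed by 1.58 in WT (SE 0.319, adjusted p 0.000489), a call lost under quantile normalization (adjusted p 0.242), and by 0.32 in TonEBP +/- (adjusted p 0.401). In TonEBP +/- its difference was -0.37 on the values as deposited (adjusted p 0.279) and -0.76 under quantile normalization (0.0285), so no tissue direction is read for Pxn there.

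Other focal adhesion proteins were tested from a separate list of 23 genes, 22 of them measured. In WT 14 were higher in NP and 3 lower (median log2 difference 2.01, against -0.10 over all probe sets), and in TonEBP +/- 14 and 6. Of all probe sets, 33.7% were higher and 31.3% lower in WT, and 30.9% and 25.3% in TonEBP +/-. The largest were Cav1, the caveolae coat protein, higher by at least 63.4-fold in WT, Lims2 (PINCH2), by at least 101.5-fold, the actin crosslinker Actn4, by 5.60 on the log2 scale (SE 0.381, adjusted p 6.95e-09), and the tensin Tns2, by 5.07 (SE 0.238, adjusted p 1.75e-10). Lims2 was thus above background in NP and not in AF WT, while Lims1 was lower in NP. Of 22 measured integrin ligands, 8 were higher and 8 lower in WT NP, and 9 and 9 in TonEBP +/-. The WT split of the ligands lay near the shares of all probe sets. Thbs1 was lower in NP, with a difference of -7.13 in WT (SE 0.892, adjusted p 5.47e-06) and Npnt, a ligand of alpha-8 beta-1, higher by 6.67 (SE 0.528, adjusted p 3.77e-08). Col6a1 was higher in NP by 4.65 (SE 0.285, adjusted p 2.31e-09), and Tnc, a ligand of alpha-9, was lower by at least 9.74-fold.

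The second comparison asks what loss of 1 functional Nfat5 copy did in AF. The leukocyte subunits Itgam and Itgb2, the blood-cell kindlin Fermt3, and the adaptors Lims1, Vcl and Tln1 were higher in AF TonEBP +/- than in AF WT, by 1.90- to 3.65-fold. No gene of the 37 was lower, and none of the 16 matrix-binding subunits passed the test (median difference -0.03, range -0.64 to 0.98). The 6 higher genes are 16.2% of the 37, against 2.76% of all probe sets (3.31% were lower and 6.07% changed in either direction). The median of all 37 genes was 0.24, and of all probe sets -0.04.

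These calls were not stable. With AF arrays alone, or with each tissue given its own array weight, 0 of the 37 genes passed (limma; 12 had an unadjusted p under 0.05 in the fit to all arrays, 32.4%, against 23.2% of all probe sets), and 0 passed without AF WT array 2, AF WT array 3, AF TonEBP +/- array 1 or AF TonEBP +/- array 3. Without AF WT array 1, 5 passed, with Fermt3 and Tln1 no longer among them and Pxn added, and without AF TonEBP +/- array 2, 12 passed, 11 of them higher. The number of all probe sets called moved as well, from 1347 in the fit to all arrays to between 81 and 576 in the omissions with 0 of the 37 genes, and to 4029 (18.1%) without AF TonEBP +/- array 2. The 6 called genes kept their direction in each of these fits. Over all 12 omissions Fermt3 kept its call in 3, being lost also without NP WT array 1 or any NP TonEBP +/- array.

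The values of Itgam, given above, put all 3 AF TonEBP +/- arrays above all 3 AF WT arrays, with a difference of 1.87 (SE 0.468, 3.65-fold, adjusted p 0.0317). Itgb2 was higher by 1.84 (SE 0.449, 3.57-fold, adjusted p 0.0294) and also without overlap. Fermt3 was higher by 1.41 (SE 0.382, 2.65-fold, adjusted p 0.0415), its AF TonEBP +/- array 2 (10.52) lying just above the highest WT array (10.28). With AF arrays alone the adjusted p was 0.0961 for Itgam, 0.108 for Itgb2 and 0.126 for Fermt3.

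Lims1 was higher by 1.10 (SE 0.262, 2.15-fold, adjusted p 0.0276) and Vcl by 1.10 (SE 0.254, 2.14-fold, adjusted p 0.0259). Tln1 was higher by 0.93 (SE 0.236, 1.90-fold, adjusted p 0.0330), and under quantile normalization its difference was 0.29 (adjusted p 0.479). In all 3 genes the genotypes did not overlap and AF TonEBP +/- array 3 was the highest. Over the 37 genes, 8 did not overlap between genotypes with TonEBP +/- higher (10% of all probe sets) and 3 with TonEBP +/- lower (12.3%).

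**Figure D3:**
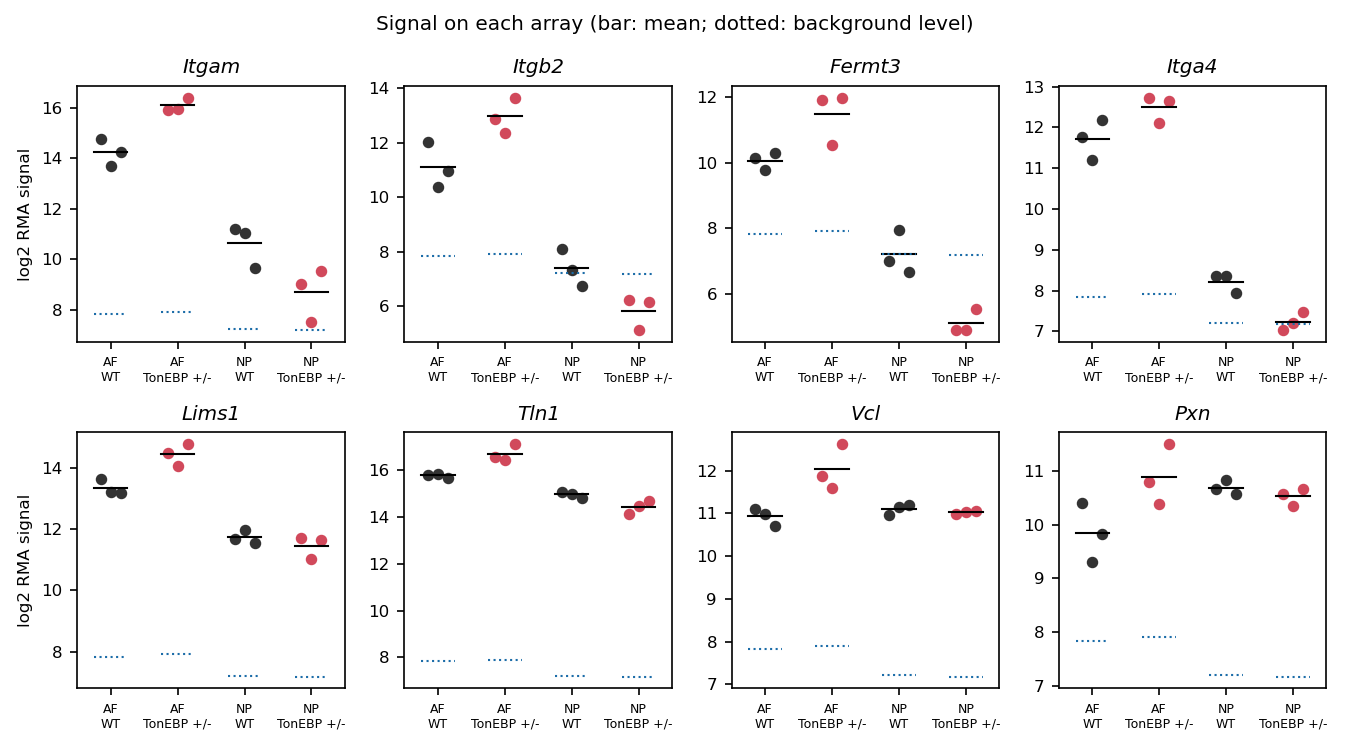
Log2 RMA signal (y axis) on each of the 12 arrays (points) by tissue and genotype (x axis) for the 7 genes called in a genotype comparison or its difference between tissues, and Pxn, with the group mean as a bar and the mean background level as a dotted line; each panel has its own scale. Itgam, Itgb2 and Fermt3 are higher in AF TonEBP +/- and lower in NP TonEBP +/- than in WT with no overlap.

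Further genes missed the threshold and are given as values, chosen after they were seen. Parvg differed by 1.28 (SE 0.401, adjusted p 0.0674), Itgal by 1.08 (SE 0.378, adjusted p 0.0979), Pxn by 1.05 (SE 0.301, adjusted p 0.0506) and Itga4 by 0.78 (SE 0.274, adjusted p 0.100). Pxn passed with medians subtracted and under quantile normalization (adjusted p 0.0483 and 0.0356), and Parvg under quantile normalization (1.23, adjusted p 0.0457). Among matrix-binding subunits the intervals, from a spread shared with the NP arrays, limit the size of a difference only in part. Itgb1 differed by 0.44 (95% interval -0.21 to 1.09), and this interval includes the difference of Tln1 (0.93). Itgav differed by 0.25 (-0.22 to 0.72) and Itga6 by 0.05 (-0.43 to 0.52). Itgb5 differed by -0.48 (-1.04 to 0.09) and Itga2b by -0.49 (-0.98 to 0.00). Itgb3, with its wide spread, differed by 0.98 (0.00 to 1.96, adjusted p 0.213).

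Some leukocyte and bone-resorbing cell markers moved with these genes in AF, and others did not. Of 6 pan-leukocyte markers, Laptm5, Ptprc and Coro1a were higher in AF TonEBP +/- (1.86, 1.58 and 1.54; adjusted p 0.0485, 0.0326 and 0.0415), with AF arrays of the 2 genotypes not overlapping in the mean level given above. Of 9 neutrophil markers, Camp, Ctsg and Prtn3 were higher, with means of 15.9 to 16.4 in AF WT and 16.9 to 17.6 in AF TonEBP +/-. Of 6 osteoclast markers, Acp5, Ctsk and Atp6v0d2 were higher (4.13, 3.62 and 3.45), and of 5 endothelial markers Kdr alone was. Of 6 macrophage markers Csf1r alone was higher, and of 5 T and NK markers Nkg7 alone (median of the 5, -0.24). None of 3 B-cell, 5 megakaryocyte and platelet or 4 erythroid markers was called. The part of these cells in the integrin and adaptor differences was not tested. The mean of the 8 leukocyte subunits was 9.09 to 9.70 in AF WT and 9.85 to 10.5 in AF TonEBP +/-. The mean of the 16 matrix-binding subunits was 8.24 to 8.71 over all 12 arrays. That mean averages opposite tissue differences, with 7 of the 16 higher and 7 lower in WT NP (33.7% and 31.3% of all probe sets). Among these calls, those of Itga11, Itga9 and Itgb8 rest on signals near or below background. The mean does not show that single subunits were steady.

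**Figure D4:**
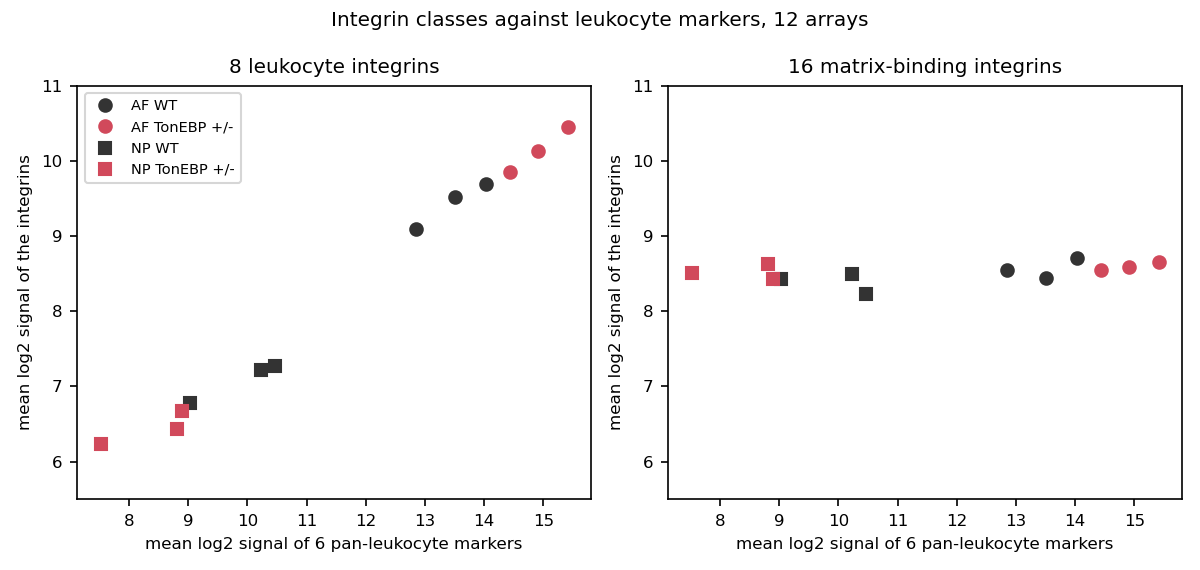
Mean log2 signal of the 8 leukocyte subunits (left, y axis) and of the 16 matrix-binding subunits (right, y axis) against the mean log2 signal of 6 pan-leukocyte markers (x axis), 1 point for each of the 12 arrays. The leukocyte mean runs from 6.23 on an NP TonEBP +/- array to 10.5 on an AF TonEBP +/- array along with the markers. The matrix-binding mean stays between 8.24 and 8.71, although single subunits differ between the tissues in opposite directions.

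Among the other focal adhesion proteins, 6 of 22 were higher in AF TonEBP +/- and none lower, against 2.76% and 3.31% of all probe sets. Tns3 was higher by 1.60 (SE 0.393, adjusted p 0.0297), Lasp1 by 1.43 (SE 0.386, adjusted p 0.0404), Flna by 1.38 (SE 0.347, adjusted p 0.0321) and Rsu1, the partner of PINCH, by 1.24 (SE 0.270, adjusted p 0.0219). Of 22 ligands, Col1a1, Tnc and Vcam1 were higher and Fn1 was lower. Col1a1, the main collagen of the annulus, was higher by 4.18 (SE 0.645, adjusted p 0.00772) and Tnc by 3.78 (SE 0.530, adjusted p 0.00451). Vcam1, the counter-receptor of alpha-4 integrins, was higher by 1.76 (SE 0.417, adjusted p 0.0270), and fibronectin (Fn1), the ligand of alpha-5 beta-1, was lower, with a difference of -1.57 (SE 0.261, adjusted p 0.0109).

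The third comparison asks the same of NP. Fermt3 alone of the 37 genes passed the test, lower in NP TonEBP +/- (fitted difference -2.09, SE 0.382, limma adjusted p 0.0474), against 0.113% of all probe sets lower and 0% higher. The call rests on signals at and below background, since 1 of 3 WT arrays and 0 of 3 TonEBP +/- arrays were above it, and against the background level Fermt3 was lower by at least 1.02-fold. It was lost with medians subtracted (adjusted p 0.0896), under quantile normalization (0.0790) and with NP arrays alone (0.126). With 1 array left out, the Fermt3 call was kept in 3 of 12 omissions (limma adjusted p up to 0.375). At an unadjusted p under 0.05, 7 of the 37 genes passed (18.9%), against 3.72% of all probe sets.

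Itgam was above background on all NP arrays and differed by -1.95 in NP (SE 0.468, adjusted p 0.189), the 3 TonEBP +/- arrays lying below the 3 WT arrays. Itgb2 differed by -1.56 (SE 0.449, adjusted p 0.511) and Itga4 by -0.98 (SE 0.274, adjusted p 0.445). Without NP WT array 3, the lowest WT array for Itgam, both Fermt3 and Itgam passed (-2.36 and -2.45), with 0.356% of all probe sets called. The groups did not overlap for 5 genes lower in TonEBP +/- (Fermt3, Itga4, Itgam, Itgb2, Tln1; 5.93% of all probe sets) and for 4 higher (Itga5, Itga7, Itgb1, Itgb6; 5.34%). The largest of the latter was Itga5, at 0.59 (95% interval 0.04 to 1.13, adjusted p 1), where NP TonEBP +/- array 1 (10.95) stood above the others of its group (9.93 and 10.03).

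Besides Itga5, the genes furthest above AF in WT NP had these genotype differences in NP. Itgav differed by 0.07 (95% interval -0.40 to 0.54), Tln2 by 0.12 (-0.33 to 0.57) and Parva by 0.17 (-0.30 to 0.65). Fermt2 differed by 0.25 (-0.39 to 0.88) and Itgb1 by 0.24 (-0.41 to 0.89). None of the 22 other focal adhesion proteins and none of the 22 ligands passed in NP. Of the 6 pan-leukocyte markers none passed, with a median difference of -1.45, while the neutrophil markers Mpo, Elane and Ctsg and the erythroid marker Slc4a1 were lower; their part in the values of Itgam, Itgb2 and Fermt3 was not tested.

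The fourth comparison tests whether the genotype difference was unlike in NP and AF. It was for Itgam, Fermt3, Itgb2 and Itga4, whose TonEBP +/- means lay above WT in AF and below WT in NP, 10.8% of the 37 genes against 0.766% of all probe sets (0.122% differed in the other direction and 0.887% in either). The difference of differences, NP minus AF, was -3.82 for Itgam (SE 0.661, limma adjusted p 0.0159), -3.49 for Fermt3 (SE 0.540, adjusted p 0.0109), -3.40 for Itgb2 (SE 0.635, adjusted p 0.0215) and -1.76 for Itga4 (SE 0.388, adjusted p 0.0429). Itgam and Itga4 rest on signals above background in all groups, though on 2 of 3 NP TonEBP +/- arrays for Itga4, while Fermt3 and Itgb2 were below background on all NP TonEBP +/- arrays, so their size there is not measured.

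Fermt3 passed in every setting and with any 1 array left out (adjusted p up to 0.0459). Itgam was lost without AF WT array 2, NP WT array 1 or NP WT array 2 (up to 0.0637), and Itgb2 also without AF WT array 3, AF TonEBP +/- array 1, AF TonEBP +/- array 3 or NP TonEBP +/- array 2 (up to 0.0739). The number of genes passing ranged from 1 to 11 over the omissions, with 11 without AF TonEBP +/- array 2, where 5.94% of all probe sets passed (1319, against 197 with all arrays and as few as 22 in another omission). Itga4 was lost with medians subtracted (adjusted p 0.0527), under quantile normalization (0.0627) and in 9 of 12 omissions. Tln1 (-1.46, adjusted p 0.0512) and Parvg (-2.27, adjusted p 0.0760) missed the threshold.

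**Figure D5:**
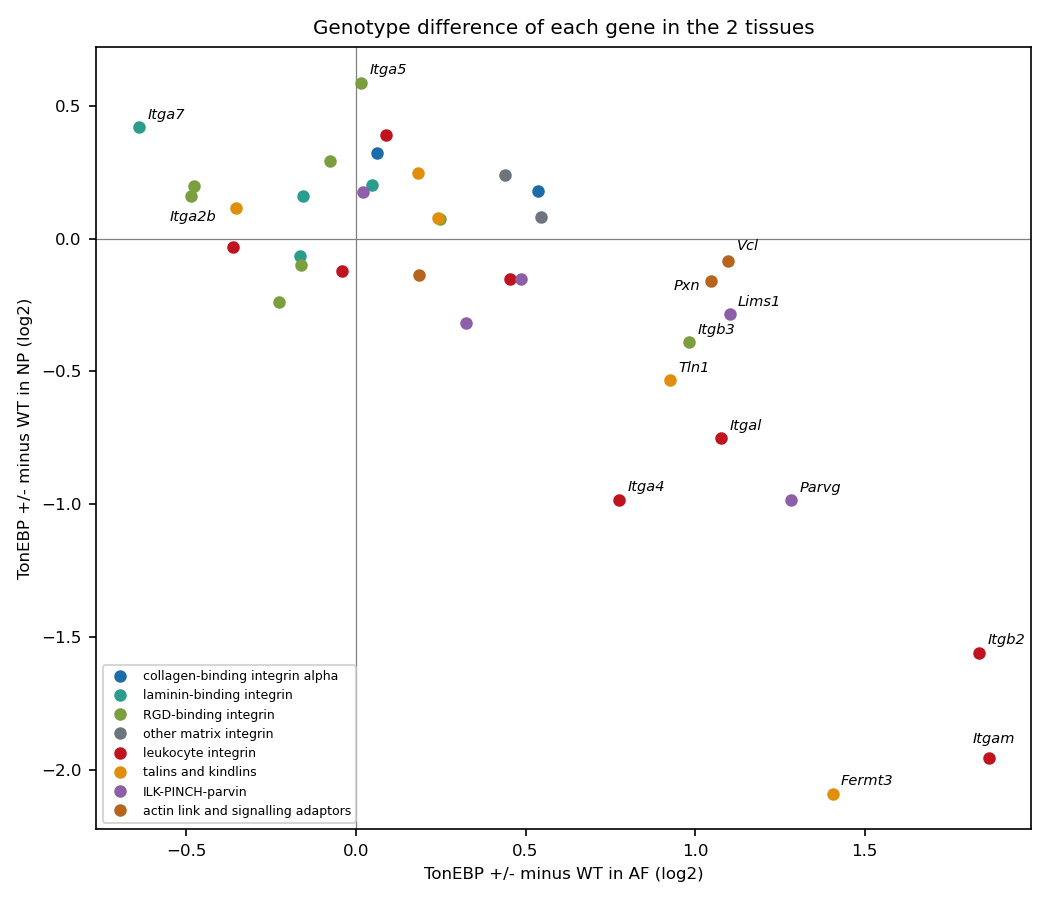
Genotype difference (TonEBP +/- minus WT, log2) of each of the 37 genes in AF (x axis) and NP (y axis), coloured by class. Itgam, Itgb2 and Fermt3 lie at the lower right, at AF values of 1.41 to 1.87 and NP values of -2.09 to -1.56, and the matrix-binding subunits lie between -0.64 and 0.98 in AF and between -0.39 and 0.59 in NP.

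No matrix-binding subunit passed this test. The differences farthest from 0 were Itgb3 at -1.37 (SE 0.652, adjusted p 0.361), whose NP signals were below background, and Itga7 at 1.06 (SE 0.295, adjusted p 0.108), whose AF signals were, and Itgav differed by -0.17 (95% interval -0.84 to 0.49). Pan-leukocyte and neutrophil markers again moved with the leukocyte subunits, and their part was not tested. Of these, 5 of 6 and 6 of 9 passed with the same sign. Among them were Lcp1 at -3.81 (SE 0.819, adjusted p 0.0408) and Laptm5 at -3.52 (SE 0.749, adjusted p 0.0395). The osteoclast marker Atp6v0d2 and the erythroid marker Slc4a1 also passed with the same sign. None of the macrophage, T and NK or B-cell markers passed. Of the ligands, Col1a1 (-4.23), Tnc (-3.91) and Vcam1 (-2.79) passed, being higher in AF TonEBP +/- with no call in NP, and Fn1 (1.89) passed with the opposite sign. None of the 22 other focal adhesion proteins passed.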

How the data were processed

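RNA of 12 disc samples was isolated on RNeasy Mini columns and, per the labels' protocols and titles, labelled with the GeneChip WT Plus kit for Clariom S arrays. The deposited values are log2 signals that the authors made with RMA in Affymetrix Expression Console, per the submitters' processing notes; versions, and which arrays were normalized together, are not given in the sources used here. RMA equalizes signal distributions over the arrays it takes together, so differences between the tissues depend on that choice.

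Of 28846 probe sets, 6640 controls were left out. A model with 4 group means was fitted to the other 22206 on all 12 arrays (limma 3.58.1 in R 4.3.3; 8 residual and 7.93 prior degrees of freedom), with Benjamini-Hochberg adjustment over all of them and calls at 0.05; the code was tested on simulated data. Genotype contrasts used the deposited log2 values, and tissue contrasts used values minus each array's median. No 2 arrays were duplicates (smallest SD of a difference 0.414). The number of arrays limits the precision. Alternatives were other scalings, a background filter, other moderation, array weights by tissue, 1 tissue or genotype alone, and leaving out each array. Every gene was named. Values on each array are printed for genes called by genotype or in its difference between tissues, for the highest and lowest probe set of each class, and for the 5 largest WT tissue differences each way. The genes, lists and background level were chosen with earlier results of these data known. Figures were drawn with matplotlib 3.10.9 in Python 3.11.15.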

Additional observations from a re-analysis of the deposited data

Results flagged for a closer look

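The genotype difference was unlike in NP and AF for 4 genes by the test of that difference (NP minus AF, limma). It was -3.82 for Itgam (adjusted p 0.0159), -3.49 for Fermt3 (adjusted p 0.0109), -3.40 for Itgb2 (adjusted p 0.0215) and -1.76 for Itga4 (adjusted p 0.0429). In each, the mean of the 3 TonEBP +/- arrays was above the WT mean in AF and below it in NP, and the AF arrays of Itga4 overlapped. The values of Fermt3 and Itgb2 in NP TonEBP +/- were below background on all 3 arrays. Of the leukocyte markers, 5 of 6 pan-leukocyte and 6 of 9 neutrophil markers passed this test with the same sign, and their part was not tested.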

How the results depend on the processing

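With 3 arrays a group, the tissue counts kept within 1.5 times of 29 in both genotypes under all alternatives run; leaving out 1 array gave 28 to 31 genes in WT and 26 to 29 in TonEBP +/-. Of the called differences that of 1 gene turned: Vcl between the tissues in WT, from 0.91 to -0.51 under quantile normalization. Pxn in TonEBP +/-, not called with medians subtracted (0.32), turned to -0.76 there and passed; the cause was not tested. The genotype counts were less stable. In AF, 6 genes became 0 with array weights by tissue and 0 with AF arrays alone, and 0 to 12 over the omissions. In NP, 1 gene became 0 with array medians subtracted, 0 under quantile normalization and 0 with NP arrays alone, and 0 to 2 over the omissions. The difference between tissues was passed by 4 genes, and by 1 to 11 over the omissions, Fermt3 each time. The weights (0.736 for AF and 1.36 for NP arrays) and the single-tissue fits change the estimated spread and not the differences. Averaging over probe sets changed nothing, since each gene had 1. No paired analysis was possible because the labels give the arrays no replicate number or animal shared across groups. Signal over background limits Itga9, Itgad, Itgae, Itgax, Itgb4, Itgb8 and Parvb on all arrays, so a change in them would not have been readable.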
